A study of Homo sapiens with 54 samples.

Results

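The libraries compared were 3 of cells labelled as 5-FU-resistant HT-29 and 3 of sensitive HCT-116, all treated with 10 µM uracil for 24 h. They were chosen by their labels and made up 6 of the 54 libraries of the series. HCT-116 and HT-29 are human colorectal cancer cell lines. 5-FU (5-fluorouracil) is a uracil analogue that is converted in cells to nucleotides which block thymidylate synthase and enter RNA and DNA, and uracil served as its control. Resistant cells had been obtained by passaging each line in rising concentrations of 5-FU, whereas the sensitive cells had not. Per the paper, resistant cells were then maintained in medium with 5-FU, at a concentration above the 10 µM of the treatments. Poly(A)-selected RNA of biological triplicates was sequenced, and whether the resistant population was a single clone is not given in the sources used here. Resistant HCT-116 and sensitive HT-29 under uracil, 3 libraries each, served as further reference groups. Sensitive DLD-1 under uracil, another human colorectal cancer line, was used to set the line markers. Labelled resistant HT-29 and sensitive HCT-116 treated with 10 µM 5-FU for 24 h gave the responses to 5-FU. For CDKN1A, labelled resistant HT-29 with irradiation added to 5-FU is given too.

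The line markers did not match the label of the resistant HT-29 libraries. SPARC codes for a secreted matrix protein and separated the sensitive lines. It stood at 744, 769 and 791 TPM (a level corrected for transcript length and sequencing depth) in labelled resistant HT-29, at 2296, 2162 and 2262 in sensitive HCT-116, and at 0.0292, 0 and 0.0463 in sensitive HT-29. LYZ, which codes for lysozyme, stood at 1557, 1543 and 1422 TPM in sensitive HT-29 but at 0.159, 0.0387 and 0.127 in labelled resistant HT-29. All 3 libraries thus carried the HCT-116 marker at a high level and the HT-29 marker near 0. The same held for GTSF1 and MAGEB2, the other leading HCT-116 markers, with means of 276 and 168 TPM, and for ALDH1A1 and S100P of HT-29, with means of 0 and 0.749 TPM. Among 46 genes that had at least 10 TPM in each sensitive HCT-116 library and at most 0.1 TPM in each library of the other 2 sensitive lines, 44 reached a mean of 1 TPM in the libraries labelled resistant HT-29. Of 5 such HT-29 markers and 14 such DLD-1 markers, none reached it, and at a level of 0.1 TPM 1 of the 5 and none of the 14 did. With a wider rule (at least 10 TPM against at most 0.5 TPM between HCT-116 and HT-29) 214 of 217 HCT-116 markers and 0 of 115 HT-29 markers reached 1 TPM. The 3 HCT-116 markers under 1 TPM were TNFRSF6B, GPAT2 and CD164L2, which were named after their values were seen. In resistant HCT-116 under uracil, means of these 3 genes were 0.0650, 0.479 and 1.61 TPM. That group reached 1 TPM for 44 of the 46 and 215 of the 217 HCT-116 markers.

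**Figure D1:**
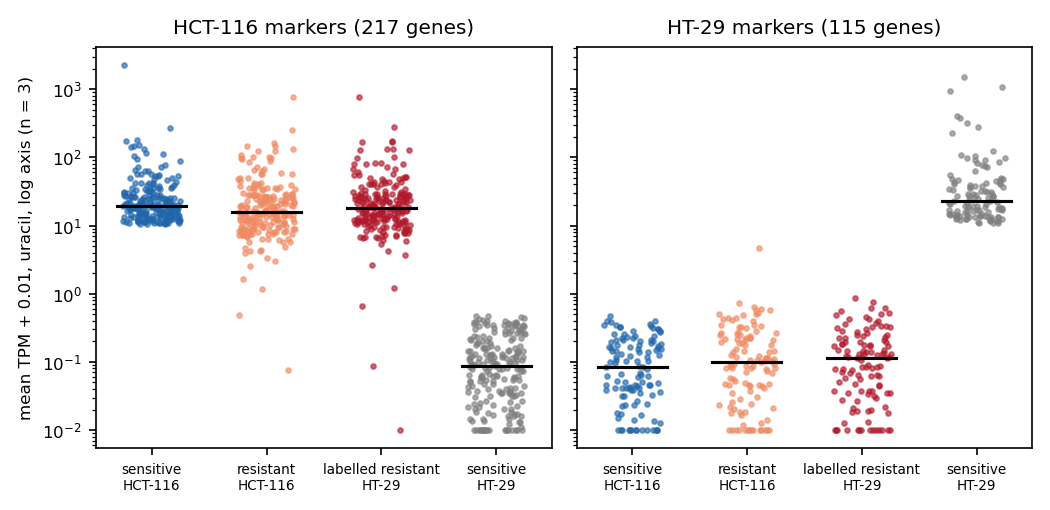
Mean TPM + 0.01 (log axis) of each line marker gene in 4 groups of 3 uracil libraries, with HCT-116 markers on the left and HT-29 markers on the right; each point is a gene and each bar the median of the points. The libraries labelled resistant HT-29 had a median of 18 TPM for the HCT-116 markers and 0.103 TPM for the HT-29 markers, beside 0.0775 and 23.1 TPM in sensitive HT-29.

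Whole profiles followed the markers. Measured as the root mean square of the differences in log2(TPM + 1), the distance between a library labelled resistant HT-29 and a sensitive HT-29 library ranged from 1.21 to 1.22. It ranged from 0.524 to 0.552 to sensitive HCT-116 and from 0.469 to 0.503 to resistant HCT-116, and within the 3 libraries themselves from 0.390 to 0.396. CDX2, an intestinal transcription factor that marks colorectal cells, was present at 11.1, 12.3 and 10.8 TPM. It was named after its values were seen. Of the 35 genes of intestinal differentiation in its list, 7 had a mean of at least 1 TPM in sensitive HCT-116. In the same list, 5 genes were at 0 counts in all libraries of labelled resistant HT-29 and sensitive HCT-116. The resistant and sensitive labels are therefore compared below between cells that both carried HCT-116 markers, and these libraries are called labelled resistant HT-29 throughout. How they came to carry that label was not tested.

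KRAB zinc finger proteins are the largest family of human transcription factors and silence genes and transposons by recruiting TRIM28 (KAP1) and heterochromatin enzymes. Many of them lie in clusters on chromosome 19. In colorectal cells the answer to 5-FU also involves thymidylate synthase (TYMS) and other enzymes of pyrimidine synthesis, and CDKN1A, an inhibitor of cyclin-dependent kinases that halts the cell cycle.

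Of 26043 genes tested, 1198 were lower and 592 higher in labelled resistant HT-29 than in sensitive HCT-116. A gene was called when its p, adjusted by the Benjamini-Hochberg method, was 0.01 or less with a fold change of at least 2 (log2 fold change of 1), by edgeR's quasi-likelihood test over all 54 libraries. The lower genes made up 4.60% and the higher genes 2.27% of those tested, 6.87% together, and the median over all genes tested was 0.01 on the log2 scale. The adjusted p alone was passed by 7876 genes, so a gene that was not called can still differ by less than 2-fold. TPM values of the 2 groups did not overlap for 46.8% of the tested genes, called or not, and 6.48% were both called and free of overlap. Total counts ranged from 42548995 to 51561008 in labelled resistant HT-29 and from 50940243 to 52299809 in sensitive HCT-116. Fold changes come from counts and the levels from TPM, so a fold and a ratio of levels can differ where the transcripts in use differ in length. They can also differ because the counts were scaled between libraries and the TPM were not. With scaling by library size alone, the median over all genes tested was 0.10 on the log2 scale. TPM overlap and summed TPM do not include that scaling.

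The genes with the largest decreases were at or close to 0 in labelled resistant HT-29. TNFRSF6B, a decoy receptor for FAS ligand, was at 26.9, 21.3 and 22.7 TPM in sensitive HCT-116 and at 0 in all 3 libraries of labelled resistant HT-29. Against a floor of 3 counts per library it was at least 314-fold lower (edgeR adjusted p = 5.7e-14), although with DESeq2 the gene did not pass the threshold. ZNF239, a zinc finger gene, was at 5.15, 6.08 and 5.74 TPM in sensitive HCT-116 and at 0 in each library of labelled resistant HT-29, at least 92.3-fold lower. The genes with the largest changes were chosen among those whose TPM did not overlap between the groups, so their separation was fixed by that choice. GPAT2, a glycerol-phosphate acyltransferase normally active in testis, stood at 0.0469, 0.0929 and 0.0911 TPM against 28.6, 27.7 and 27.1 (log2 fold change -8.39, SE 0.34, adjusted p = 4.77e-26). PXDN, an extracellular matrix peroxidase, stood at 0.294, 0.386 and 0.480 TPM against 14.9, 15.1 and 13.4 (log2 fold change -7.60, SE 0.29). SWAP70, a guanine nucleotide exchange factor acting on actin, stood at 0.375, 0.285 and 0.271 TPM against 19.9, 19.8 and 20.03 (log2 fold change -6.72, SE 0.10, adjusted p = 1.35e-44). All 3 were lower in every library of labelled resistant HT-29 than in any of sensitive HCT-116, as that choice required. SUSD3, a membrane protein gene, was at 0.0992, 0 and 0 TPM against 7.21, 6.80 and 6.06, a ratio of summed counts of 418 (95% exact interval of counting error 115 to 3458). KIF12, ZNF84, ZNF28 and ZNF468 completed the 10 largest decreases, with log2 fold changes from -7.50 to -6.91. Resistant HCT-116 under uracil was low for TNFRSF6B and GPAT2 too, with means of 0.0650 and 0.479 TPM.

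The largest increases started from low but measurable levels. KRTAP2-3, a keratin-associated protein gene, rose from 5.82, 6.29 and 5.59 TPM in sensitive HCT-116 to 192, 192 and 175 in labelled resistant HT-29 (log2 fold change 4.87, SE 0.090, adjusted p = 5.83e-40). TM4SF18, a tetraspanin-like membrane protein gene, rose from 1.95, 3.05 and 2.30 to 47.6, 50.5 and 45.97 TPM (log2 fold change 4.16, SE 0.14, adjusted p = 1.81e-29). ALDH1L1, which codes for an enzyme that oxidizes 10-formyltetrahydrofolate, rose from 0.506, 0.260 and 0.648 to 7.36, 7.40 and 6.79 TPM (log2 fold change 3.61, SE 0.13, adjusted p = 4.59e-28). Separation of the groups was required by the choice of these genes too, and the 3 libraries of labelled resistant HT-29 lay close together. ZBED2, a zinc finger transcription factor gene, was at 16.9, 17.2 and 16.8 TPM against 0.670, 0.857 and 0.585 (log2 fold change 4.46, SE 0.12). FGF9, a fibroblast growth factor, was at 11.3, 10.8 and 9.34 TPM against 1.64, 1.68 and 2.55 (log2 fold change 2.97, SE 0.15). HOXB8, a homeobox gene, was at 48.4, 49.9 and 49.97 TPM against 7.37, 6.97 and 6.80 (log2 fold change 2.71, SE 0.067). These 3 genes were also higher in every library of labelled resistant HT-29, as the same choice required. DUXAP9, GPR15 and the mitochondrial tRNA genes MT-TF and MT-TV completed the 10 largest increases, with log2 fold changes from 2.59 to 3.59.

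Among 328 KRAB zinc finger genes tested, 52 were lower and 8 higher, which is 15.9% and 2.44% beside 4.60% and 2.27% of all genes. Their median log2 fold change was 0.05, beside 0.01 for all genes, so the decreases were large in a minority of the family. Of the 52 lower genes, 51 did not overlap between the groups and 38 fell by at least 3 on the log2 scale. Over all genes tested, 1790 were called and 1687 of them were free of overlap. At 1 TPM or more in sensitive HCT-116, 159 genes of any kind were lower by at least 3, and 33 of them belonged to the family. Of the 220 members in the table with at least 1 TPM in sensitive HCT-116, 41 were lower, 18.6% beside 4.97% of all tested genes at that level. The summed level of the 363 family members in the table was 1743 to 1753 TPM in labelled resistant HT-29 and 1597 to 1664 TPM in sensitive HCT-116. Chromosome 19 held 200 of the tested members, of which 44 were lower and 8 higher, and the other chromosomes held 128, of which 8 were lower and 0 higher. Of 1011 other coding genes of chromosome 19, 55 were lower and 18 higher.

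**Figure D2:**
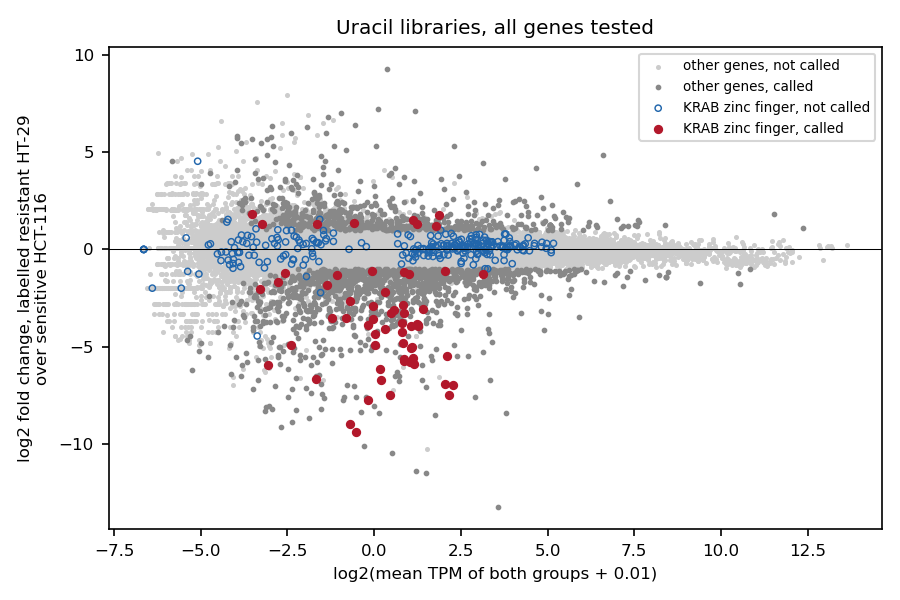
Log2 fold change of each of the 26043 tested genes (labelled resistant HT-29 over sensitive HCT-116) against the log2 of its mean TPM + 0.01; KRAB zinc finger genes are drawn as open blue circles when not called and red points when called. Most open circles sit near 0, while the 52 lower members spread down to -9.39, a fitted value of a gene at 0 counts in labelled resistant HT-29.

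The deepest decreases of the family with at least 1 TPM in sensitive HCT-116 were in ZNF177, ZNF221, ZNF613, ZNF84, ZNF607 and ZNF28. ZNF177 and ZNF221 were at 0 in all 3 libraries of labelled resistant HT-29. ZNF177 was at 1.49, 1.36 and 1.23 TPM in sensitive HCT-116 and at least 21.8-fold lower, and ZNF221 was at 1.07, 1.60 and 0.992 TPM and at least 16.02-fold lower, both against that floor. ZNF613 was at 0, 0.0182 and 0 TPM against 2.03, 1.59 and 1.61, with 1 count in all against 97.00, 106 and 98. All 3 genes were below every library of sensitive HCT-116. ZNF84 was at 0.0182, 0.0124 and 0.0971 TPM against 7.77, 9.59 and 9.28 (log2 fold change -7.50, SE 0.33, adjusted p = 1.64e-24). ZNF607 was at 0, 0 and 0.0329 TPM against 3.11, 3.000 and 2.08 (log2 fold change -7.46, SE 0.40, adjusted p = 8.74e-21). No library of one group reached the values of the other for any of these genes. In the other direction, ZNF460 rose from 1.56, 1.63 and 1.69 to 5.86, 5.83 and 5.33 TPM (log2 fold change 1.79, SE 0.13, adjusted p = 1.3e-16) and ZNF416 from 0.899, 1.03 and 1.25 to 3.06, 3.28 and 3.49 TPM (log2 fold change 1.51, SE 0.12, adjusted p = 1.16e-15). ZNF132 and ZNF814 rose by less, with log2 fold changes of 1.30 and 1.22.

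A panel of the family was measured by RT-qPCR in the study and chosen on these samples, so the panel is not independent evidence of a direction. Of its 15 KRAB zinc finger genes, 12 were lower and none higher, with a median log2 fold change of -5.08. The 7 lower genes not described one by one (ZNF440, ZNF555, ZNF567, ZNF600, ZNF708, ZNF875 and ZNF91) had log2 fold changes from -5.81 to -3.29. ZNF182, ZFP69B and ZNF841 were not called, with log2 fold changes of 0.13, -0.62 and -1.39, and the last of these was under 1 TPM in all 6 libraries. ZNF28 lies at chr19:52797408-52857600, minus strand (GRCh38). ZNF468, at chr19:52838010-52857649, minus strand, overlaps it over almost all of its own length. ZNF28 was at 0.0245, 0.0754 and 0.0284 TPM against 8.49, 10.9 and 9.34 (log2 fold change -6.95, SE 0.19, adjusted p = 3.2e-33). ZNF468 was at 1.03, 0.170 and 0.346 TPM against 7.64, 7.73 and 7.59 (log2 fold change -6.91, SE 0.19, adjusted p = 5.32e-33), and the TPM ratio was smaller than that fold. ZNF649, at chr19:51889235-51905040, minus strand, was at 0.0178, 0 and 0.194 TPM against 1.98, 2.51 and 1.97 (log2 fold change -6.12, SE 0.37, adjusted p = 3.78e-19). ZNF559, at chr19:9323772-9351162, plus strand, was at 0.160, 0.256 and 0.146 TPM against 9.44, 8.33 and 7.34 (log2 fold change -5.49, SE 0.23, adjusted p = 2.62e-25). In the plot of the panel each of the 12 lower genes had its 3 labelled resistant HT-29 libraries under the 3 sensitive HCT-116 libraries. Sensitive HT-29 expressed ZNF28 at 31.2, 30.8 and 28.5 TPM and ZNF468 at 30.3, 28.7 and 27.2 TPM, above sensitive HCT-116.

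**Figure D3:**
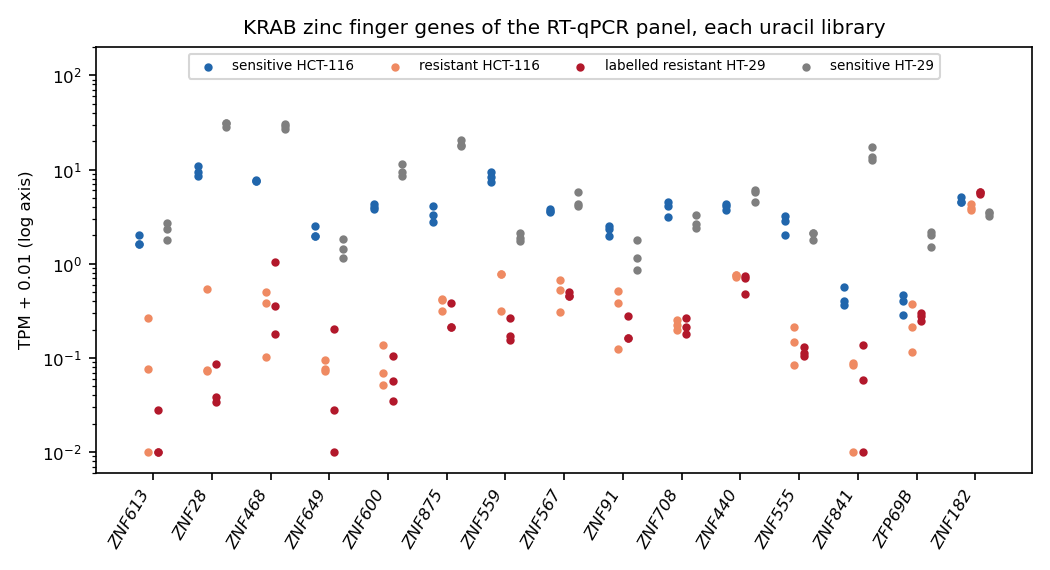
TPM + 0.01 (log axis) of the 15 KRAB zinc finger genes of the RT-qPCR panel in each uracil library of 4 groups, 3 points per group, ordered by log2 fold change. Labelled resistant HT-29 and resistant HCT-116 lie low for the first 12 genes, while ZNF182 at the right stays between 3.22 and 5.74 TPM in all 4 groups.

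The primers with which the study measured these transcripts show which part of each gene was read. They are given 5′ to 3′ for 4 lower genes and for the reference gene MRPL19, and none of them crosses an exon junction, so no letter is set in capitals.
ZNF28 forward: attcatggcttccagtttcagtgga
ZNF28 reverse: tcatgttggcctgtactaccagtca
ZNF468 forward: aaatgcatgttgaagacgttgtcgtc
ZNF468 reverse: ccaatgtgatgacttgcttgtctgtg
ZNF613 forward: tgaaatccacagccaaatctgtcca
ZNF613 reverse: ggcattgttccactctcttcagaca
ZNF649 forward: ccagtgccggggtttaagggc
ZNF649 reverse: tgaactctcttgcttctggggagc
MRPL19 forward: aaggagaaaagtactccacattccagag
MRPL19 reverse: tgggtcagctgtagtaacacga

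Matched to GENCODE transcripts, the ZNF468 pair spans 95 bases of 1 coding exon (chr19:52842046-52842140, minus strand) and is held by 3 of 6 annotated transcripts. The ZNF28 pair spans 101 bases in an untranslated part of 1 exon (chr19:52801465-52801565, minus strand) and is held by 6 of 8. The ZNF613 pair lies in 2 neighbouring coding exons and is held by 3 of 7, the ZNF649 pair in untranslated parts of 2 neighbouring exons and by 6 of 7. The deposited values are summed over all transcripts of a gene and therefore do not show which of them the primers would read. MRPL19, a mitochondrial ribosomal protein gene, was at 89.7, 86.7 and 85.9 TPM against 87.2, 86.1 and 87.1 (log2 fold change -0.09, SE 0.050, adjusted p = 0.16).

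Only 2 runs of at least 5 neighbouring tested genes were called in the same direction. The first held ZNF600, ZNF28, ZNF468, ZNF320, ZNF888 and ZNF321P at chr19:52749942-52942601 (GRCh38), with log2 fold changes from -6.95 to -1.95. The second run was the start of the mitochondrial genome, described below, and the next sentences concern the first run. Within it ZNF28 and ZNF468 overlap on the same strand, so they are not separate loci. Kallisto divides reads that fit several transcripts, so values of these closely related zinc finger genes are estimates. The first promoters listed by RefSeq (GRCh38.p14) for ZNF468 and ZNF320, within the first run, and for ZNF613 are shown because these genes fell together with their neighbours or most deeply. Each is the 250 bases before the transcript start, on the strand of the gene, with CG pairs in capitals.
ZNF468, chr19:52857620-52857869, minus strand: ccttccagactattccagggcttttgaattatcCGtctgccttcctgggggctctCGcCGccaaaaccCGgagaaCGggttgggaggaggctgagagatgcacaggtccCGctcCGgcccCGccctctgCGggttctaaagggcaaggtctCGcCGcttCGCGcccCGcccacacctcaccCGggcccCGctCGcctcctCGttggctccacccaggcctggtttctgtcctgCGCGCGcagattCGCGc
ZNF320, chr19:52897695-52897944, minus strand: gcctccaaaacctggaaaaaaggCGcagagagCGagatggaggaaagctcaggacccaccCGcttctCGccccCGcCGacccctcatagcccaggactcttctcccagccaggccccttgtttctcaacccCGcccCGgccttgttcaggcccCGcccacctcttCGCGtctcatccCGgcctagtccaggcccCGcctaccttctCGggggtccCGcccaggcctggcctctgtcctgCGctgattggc
ZNF613, chr19:51927222-51927471, plus strand: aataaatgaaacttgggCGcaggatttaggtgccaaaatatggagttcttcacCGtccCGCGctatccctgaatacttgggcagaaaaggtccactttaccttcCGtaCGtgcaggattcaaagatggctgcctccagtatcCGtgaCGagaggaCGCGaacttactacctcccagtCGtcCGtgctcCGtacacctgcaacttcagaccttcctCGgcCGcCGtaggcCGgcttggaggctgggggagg

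These promoters hold 23, 16 and 17 CG pairs, with observed to expected ratios of 0.844, 0.623 and 0.893. Over promoter windows of 300 bases, the median ratio was 0.761 for 25 KRAB zinc finger genes lower by at least 3 on the log2 scale and 0.788 for 153 members that were expressed but not called. It was 0.842 for 10556 tested genes with at least 1 TPM in sensitive HCT-116, 0.672 for 85 other genes lower by at least 3, and 0.490 for 77 higher genes. These ratios are a description of base composition, and no methylation was measured. ZNF28, ZNF600 and ZNF649 have no entry in the promoter table.

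No gene of the lists of 5-FU metabolism was called between the groups, a call needing a fold of at least 2 as well as the adjusted p. None of 17 genes of 5-FU activation, 2 of 5-FU degradation and 18 of thymidylate synthesis, folate and uracil removal was called in either direction. Over all genes tested, 6.87% were called. The list medians were -0.07, -0.18 and 0.00 on the log2 scale. TYMS, the enzyme that 5-FU blocks, was at 340.0, 343 and 324 TPM in labelled resistant HT-29 and at 298, 287 and 296 in sensitive HCT-116 (log2 fold change 0.04, SE 0.051, adjusted p = 0.536). The 95% interval of that log2 fold change was -0.06 to 0.15. UMPS, which makes the 5-FU ribonucleotide, was at 50.01, 52.1 and 53.5 against 45.6, 47.9 and 54.2 TPM, with an interval of -0.07 to 0.14. DPYD, which breaks 5-FU down, was at 0.974, 0.651 and 0.738 TPM against 1.14, 0.977 and 1.17. Its interval of -1.07 to -0.28 lay below 0, while its log2 fold change of -0.68 fell short of the fold threshold. Of 16 genes of drug and nucleoside transport, ABCB1, an efflux pump, was lower, at 0.255, 0.131 and 0.0847 TPM against 1.85, 1.31 and 1.89 (log2 fold change -5.16, SE 0.34, adjusted p = 5.81e-18). CDKN1A was at 178, 172 and 166 TPM against 229, 216 and 215 (log2 fold change -0.51, SE 0.11, adjusted p = 0.000103). Sensitive HT-29 had CDKN1A at 1.51, 1.94 and 2.20 TPM.

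Genes of epithelial adhesion that were called were all lower. Of 35 tested, 7 were lower and none higher, with a median log2 fold change of -0.64. The lower genes were 20% of this list, and over all genes 4.60% were lower and 2.27% higher. CDH1, which codes for E-cadherin, was at 5.67, 8.73 and 6.63 TPM against 26.9, 26.2 and 26.2 (log2 fold change -2.22, SE 0.061, adjusted p = 7.31e-33). GRHL2, a transcription factor of epithelial genes, was at 1.17, 0.866 and 1.25 TPM against 6.53, 6.54 and 6.30 (log2 fold change -2.63, SE 0.085, adjusted p = 4.29e-30). The membrane protease ST14 and the cadherin CDH3 were also lower, with log2 fold changes of -1.36 and -1.32. Mesenchymal and motility genes did not move one way. Of 34 tested, 6 were lower, among them SPARC (-1.75), TWIST1 (-2.28) and LOXL2 (-1.06), and 2 were higher, among them ZEB1, a repressor of CDH1, which was at 6.996, 6.11 and 8.49 TPM against 2.54, 3.17 and 2.84 (log2 fold change 1.18, SE 0.11, adjusted p = 4.05e-13). Of 17 keratin genes, KRT23 (log2 fold change 2.49) and KRT13 (1.30) were higher and none lower. Of 30 genes of intestinal differentiation, 1 was lower, FXYD3 (-2.46), and 2 were higher.

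Antigen presentation and interferon-stimulated genes were lower where they were called. Over all genes, 4.60% were lower and 2.27% higher. Of 11 MHC class II genes, 8 were lower (72.7%) and none higher (list median -2.94). HLA-DRA was at 0, 0.103 and 0.0564 TPM against 4.73, 5.26 and 5.29, a ratio of summed counts of 112 (95% exact interval of counting error 47.6 to 345; edgeR adjusted p = 2.55e-10), and did not pass the threshold with DESeq2. HLA-DQB1 was at 0.348, 0.272 and 0.634 TPM against 6.19, 4.72 and 4.63 (log2 fold change -3.61, SE 0.38, adjusted p = 3.95e-10). CIITA, the activator of class II genes, was not called (log2 fold change 0.28, adjusted p = 0.179). HLA-DMA, the highest of the list, was at 5.89, 5.58 and 6.54 TPM against 12.9, 11.7 and 13.3 (log2 fold change -1.29, SE 0.12, adjusted p = 3.11e-13), and HLA genes have near-identical copies between which reads are divided by estimate. Of 20 genes of class I presentation, 3 were lower, among them HLA-F (-1.84) and the immunoproteasome subunit gene PSMB9 (-1.25). Of 39 interferon-stimulated genes, 7 were lower (17.9%) and none higher. IRF7, a transcription factor of the interferon response, was at 1.42, 0.768 and 1.15 TPM against 5.45, 5.78 and 6.21 (log2 fold change -3.21, SE 0.14, adjusted p = 2.66e-24), and SAMD9, IFIH1 and HERC5 had log2 fold changes of -2.20, -1.64 and -1.502. Of 18 NF-kB target chemokine genes, 2 were higher and 1 lower. CXCL8, a neutrophil attractant, rose from 3.04, 2.56 and 3.08 to 15.1, 15.3 and 15.4 TPM (log2 fold change 2.32, SE 0.17, adjusted p = 2.47e-16). CXCL2 was the other higher one (1.24, adjusted p = 0.00362), a call that was lost without replicate 2 of labelled resistant HT-29 (log2 fold change 0.99) and without any 1 library of sensitive HCT-116 (1.18 to 1.27).

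A few cell cycle and repair genes were called, in lists that otherwise held no call. Over all genes, 4.60% were called lower and 2.27% higher. CDC25C, the phosphatase that opens mitosis by activating CDK1, was at 0.590, 0.302 and 0.508 TPM against 17.8, 17.5 and 16.5 (log2 fold change -5.25, SE 0.13, adjusted p = 1.12e-34). HMMR was the only other of 40 G2/M genes that was lower (-1.002), on the edge of the fold threshold, and with several alternatives fell short of it, and none was higher. None of 39 genes of DNA replication and G1/S was called (list median -0.01). GINS4, a gene of DNA replication, differed by less than the fold threshold (log2 fold change 0.48, edgeR adjusted p = 6.77e-12). MLH3, a mismatch repair gene, was at 0.958, 2.35 and 1.72 TPM against 11.4, 12.1 and 9.53 (log2 fold change -3.03, SE 0.074, adjusted p = 7.56e-35), and no other of 10 mismatch repair genes was called. None of 17 BCL2 family genes and none of 27 genes of heterochromatin repression, the partners of KRAB zinc finger proteins, was called, with medians of -0.06 and 0.00. Of 15 replication-dependent histone genes 1 was higher.

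Metabolic and signalling lists held single large changes. Beside the 4.60% lower and 2.27% higher of all genes, the counts of several lists were small and are not read as list-wide changes. SLC7A11, the cystine transporter, rose from 10.8, 11.8 and 10.6 to 40.7, 41.3 and 40.3 TPM (log2 fold change 1.76, SE 0.085, adjusted p = 5.13e-23). It was the higher one of 24 NRF2 targets, of which 2 were lower, and with CHAC1 (1.43) it made up the 2 higher of 30 ATF4 and amino acid response genes. SQLE, the squalene epoxidase of cholesterol synthesis, fell from 55.02, 55.3 and 56.5 to 10.7, 10.7 and 10.6 TPM (log2 fold change -2.51, SE 0.10, adjusted p = 2.3e-26), and 2 of 27 genes of that list were lower and none higher. Of 26 hypoxia-induced genes, 4 were lower, EGLN3 (-2.96), NDRG1 (-1.88), CA12 (-1.58) and ALDOC (-1.02). Of 27 WNT target and stem genes, 4 were lower, BMP4 (-1.59), TNFRSF19 (-1.56), EPHB3 (-1.19) and EPHB2 (-1.11). Of 30 EGFR ligand and MAPK feedback genes, EPHA4 (-2.10) and ETV4 (-1.06) were lower and EREG, an EGFR ligand, rose from 99.7, 104 and 100.4 to 305, 303 and 289.9 TPM (log2 fold change 1.41, SE 0.071, adjusted p = 1.94e-22). Of 18 aldehyde dehydrogenases, 1 was lower and ALDH1L1 higher. Of 8 cancer-testis genes of the X chromosome, MAGEA6 was higher (1.22), a call that was lost when replicate 3 of sensitive HCT-116 was left out. None of 9 reference genes was called, YWHAZ having a log2 fold change of -0.10.

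The markers of other cell types that were called had means under 1 TPM in both groups. Of 24 markers of fibroblast, immune, endothelial, adipocyte and neural cells, 16 were tested, 2 were higher (PTPRC and COL3A1) and 1 lower (PDGFRB). These were 12.5% and 6.25% of those tested, beside 2.27% and 4.60% of all genes. PTPRC, which marks leukocytes, was at 0.354, 0.305 and 0.529 TPM in labelled resistant HT-29, and CD3E, HBB and ELAVL4 were at 0 counts in all 6 libraries. The highest members were COL1A1, at 13.2, 13.3 and 15.1 TPM against 19.5, 24.2 and 20.2, and MBP, at 14.98, 14.01 and 16.1 against 18.6, 18.5 and 16.8, neither of them called. The summed level of the list was 48.5 to 55.97 TPM in labelled resistant HT-29 and 59.9 to 63.2 in sensitive HCT-116.

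Changes along the chromosomes were small except on chromosome 8. Median log2 fold changes of coding genes ranged from -0.09 on chromosome 15 to 0.01 on chromosome 17. Among 255 windows of 10 Mb with at least 20 coding genes, chosen as a summary after the data were seen, the window at 30 to 40 Mb of chromosome 8 had a median of 0.68 and the other windows lay between -0.29 and 0.18. From SARAF to WRN (chr8:30063003-31176138, GRCh38), all 9 coding genes with at least 1 TPM were higher at the adjusted p threshold and 6 were called, with a median log2 fold change of 1.18. DCTN6, a dynactin subunit gene, was at 205, 218.6 and 198 TPM against 80.3, 81.4 and 85.6, and WRN, a DNA helicase gene, was at 43.7, 43.4 and 42.8 TPM against 16.6, 14.6 and 13.8 (log2 fold changes 1.18 and 1.35). From FUT10 to KAT6A (chr8:33370824-42051994) 26 of 29 genes had log2 fold changes above 0, with a median of 0.48, and FGFR1 was at 74.3, 76.9 and 89.9 TPM against 46.02, 54.5 and 47.5. Before SARAF, from ZNF395 to KIF13B (chr8:28345590-29263124), all 7 genes were lower at the adjusted p threshold, with a median of -1.05. EXTL3, a glycosyltransferase gene of heparan sulfate synthesis, was at 7.11, 9.37 and 10.05 TPM against 23.6, 22.6 and 23.5 (log2 fold change -1.60, SE 0.059, adjusted p = 8.17e-28). Resistant HCT-116, set against the same sensitive libraries, had medians of -1.02, 1.06 and 0.43 over the 3 stretches, from ZNF395, SARAF and FUT10 on. Labelled resistant HT-29 over resistant HCT-116 had medians of -0.11, 0.13 and 0.12. DUSP4, between KIF13B and SARAF, is in none of the stretches. Its log2 fold changes over sensitive HCT-116 were -0.38 in labelled resistant HT-29 and 0.56 in resistant HCT-116. The stretches were set after their values were seen, and DNA copy number was not measured.

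**Figure D4:**
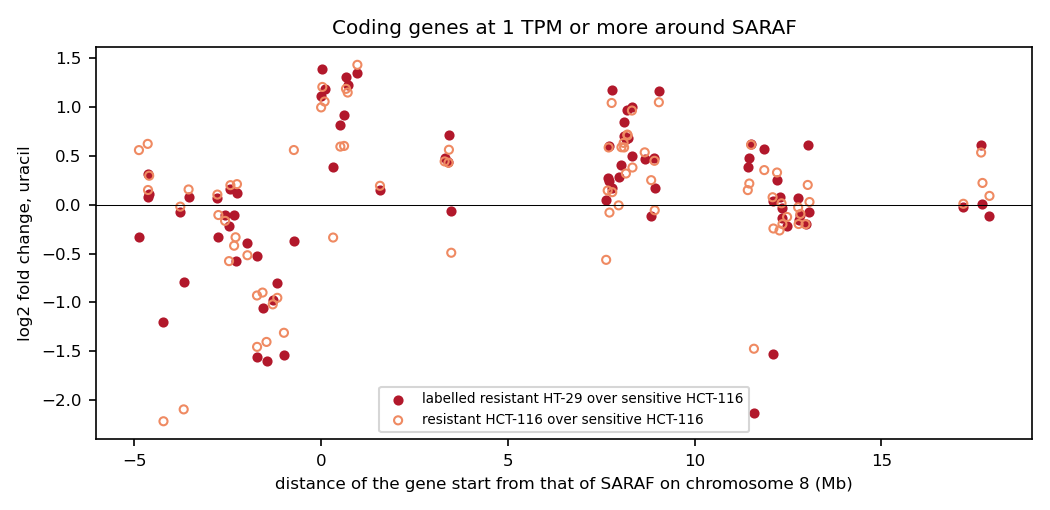
Log2 fold change of coding genes with at least 1 TPM against the distance of their start from that of SARAF on chromosome 8 (Mb); filled points are labelled resistant HT-29 and open circles resistant HCT-116, both over the same 3 sensitive HCT-116 libraries. Both sets of points drop from ZNF395 to KIF13B to medians of -1.05 and -1.02 and rise from SARAF to WRN to 1.18 and 1.06. DUSP4, between these stretches, is at -0.38 and 0.56.

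Mitochondrially encoded structural RNAs formed the other group of neighbours. Of 21 tested mitochondrial tRNA genes, 12 were higher and none lower (57.1% higher beside 2.27% of all genes, list median 1.54). None of the 13 mitochondrial protein genes was called (list median 0.17). These lists were set up after the data were seen. The run of 5 neighbours, MT-TF, MT-RNR1, MT-TV, MT-RNR2 and MT-TL1, spans positions 577 to 3304 of the mitochondrial genome. MT-RNR1, a ribosomal RNA, was at 4701, 4471 and 4955 TPM against 1106, 1452 and 1160.1 (log2 fold change 1.80, SE 0.11, adjusted p = 1.26e-19). MT-TF was at 76.9, 107 and 127 TPM against 10.6, 16.1 and 4.81 (log2 fold change 3.39, SE 0.45, adjusted p = 1.59e-08). MT-TV was at 31.1, 16.2 and 43.9 TPM in labelled resistant HT-29, and its call was lost without replicate 1 or 2 of sensitive HCT-116 (log2 fold changes 2.03 and 2.47) or replicate 3 of labelled resistant HT-29 (2.29). Transcripts this short, or without a long poly(A) tail, are captured unevenly by poly(A) selection, and the part of capture in these values was not tested.

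Labelled resistant HT-29 was next set against resistant HCT-116 under uracil, the group with which it shares both the resistant label and the line markers. Of 26043 genes, 455 were lower and 420 higher in labelled resistant HT-29, 1.75% and 1.61% of those tested and 3.36% together. SWAP70 was at 16.3, 16.8 and 17.1 TPM in resistant HCT-116, close to sensitive HCT-116, and so was low in labelled resistant HT-29 but in neither HCT-116 group (log2 fold change -6.47, SE 0.10, adjusted p = 1.51e-43). ZNF239 was at 2.67, 2.59 and 3.03 TPM in resistant HCT-116 against 0 in labelled resistant HT-29 (adjusted p = 7.52e-26). MLH3 was at 5.91, 5.52 and 7.25 TPM in resistant HCT-116, between the other groups (log2 fold change -1.98, SE 0.079, adjusted p = 3.4e-26). KRTAP2-3 was at 17.6, 17.4 and 19.3 TPM (log2 fold change 3.28, SE 0.078, adjusted p = 1.79e-35) and TM4SF18 at 1.08, 1.05 and 1.49 TPM (log2 fold change 4.77, SE 0.15, adjusted p = 9.17e-31). CXCL8, at 2.80, 2.88 and 2.92 TPM in resistant HCT-116, was higher in labelled resistant HT-29 as well (log2 fold change 2.47, SE 0.17, adjusted p = 6.95e-17). SQLE was lower still in resistant HCT-116, at 1.57, 2.32 and 3.76 TPM (log2 fold change 2.31, SE 0.13, adjusted p = 1.21e-19).

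Between the 2 resistant groups, KRAB zinc finger genes were called at shares near those of all genes. Of 328 tested, 4 were lower and 8 higher in labelled resistant HT-29, 1.22% and 2.44% beside 1.75% and 1.61% of all genes. Of the 15 panel genes 1 was lower, ZNF559, at 0.160, 0.256 and 0.146 TPM against 0.302, 0.771 and 0.766 (log2 fold change -1.89, SE 0.30, adjusted p = 1.67e-06). ZNF28 stood at 0.0643, 0.0626 and 0.533 TPM in resistant HCT-116, and ZNF649 at 0.0658, 0.0630 and 0.0859, neither of them called against labelled resistant HT-29 (adjusted p = 0.0979 and 0.227). Against the same sensitive HCT-116 libraries, resistant HCT-116 had log2 fold changes of -5.95 for ZNF28, -4.99 for ZNF649, -1.94 for CDH1 and -6.80 for HLA-DQB1, beside -6.95, -6.12, -2.22 and -3.61 in labelled resistant HT-29. In that comparison 57 of 328 KRAB zinc finger genes were lower and 7 higher, beside 6.15% and 4.04% of all genes (10.2% together). Because both comparisons use the same sensitive libraries, their likeness was not assessed. Keratins were lower in labelled resistant HT-29 than in resistant HCT-116 for 5 of 17 tested and higher for 1, and hypoxia-induced genes were higher for 6 of 26 and lower for none. WNT target and stem genes were higher for 6 of 27 and lower for 1, interferon-stimulated genes lower for 5 of 39 and higher for none, and none of the 35 epithelial adhesion genes was lower and 2 were higher.

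Treatment with 10 µM 5-FU for 24 h changed no gene of labelled resistant HT-29 past the thresholds. Resistant cells had been maintained in 5-FU, and whether it was withdrawn before the uracil treatment is not given in the sources used here. No gene of 26043 was called lower or higher against uracil by edgeR, 0% in each direction, while 3 passed the adjusted p alone, 1124 had an unadjusted p under 0.05, and DESeq2 called 1 lower and 1 higher. The response differed from that of sensitive HCT-116 for 6736 genes at an adjusted p of at most 0.01 (interaction term of the same fit), with 2566 (9.85%) responding lower and 4170 (16.0%) higher in labelled resistant HT-29. With scaling by library size alone, 48.7% of the genes with a different response were on the lower side in place of 38.1%. CDKN1A went from 229, 216 and 215 TPM under uracil to 676, 658 and 657 under 5-FU in sensitive HCT-116, and from 178, 172 and 166 to 173, 173 and 179.7 in labelled resistant HT-29. The difference of the 2 log2 responses was -1.62 (SE 0.15, adjusted p = 1.38e-12). With irradiation added to 5-FU, labelled resistant HT-29 reached 391, 377 and 382 TPM of CDKN1A.

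The responses of cell cycle genes differed between the groups by the same test. All 40 G2/M genes and 38 of 39 genes of DNA replication and G1/S responded higher. Their median log2 responses were -1.78 and -1.25 in sensitive HCT-116 and 0.01 and 0.01 in labelled resistant HT-29. TYMS went from 298, 287 and 296 to 126, 127 and 123 TPM in sensitive HCT-116 and from 340.0, 343 and 324 to 335, 336 and 335 in labelled resistant HT-29 (difference of responses 1.34, SE 0.073, adjusted p = 6.58e-21). TK1, thymidine kinase, fell from 333, 313 and 323 to 88.4, 88.3 and 93.3 TPM in sensitive HCT-116 and stood at 287, 297 and 285 and 295, 279 and 266 in labelled resistant HT-29. Every library of labelled resistant HT-29 under 5-FU kept TYMS and TK1 above every sensitive HCT-116 library under 5-FU. KRAB zinc finger genes were spread over both directions, 24 of 328 (7.32%) responding lower and 29 (8.84%) higher, beside 9.85% and 16.0% of all genes.

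**Figure D5:**
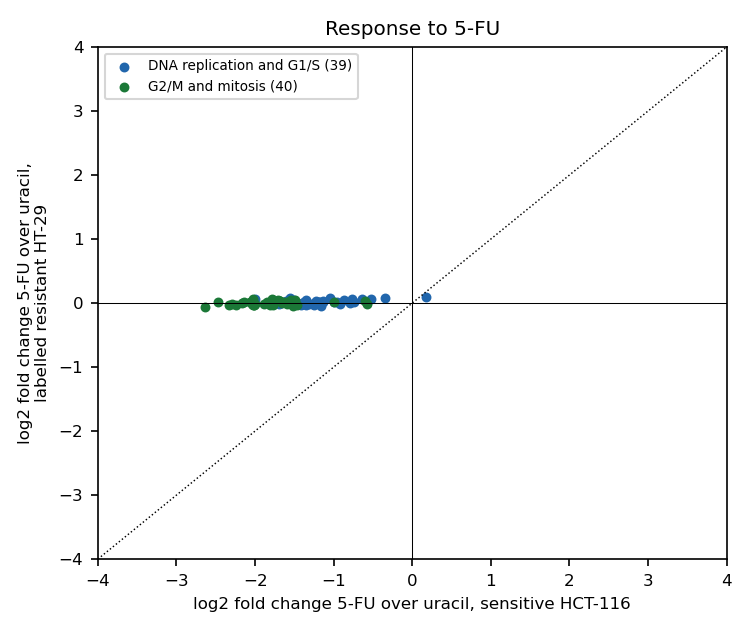
Log2 fold change of 5-FU over uracil in labelled resistant HT-29 (vertical axis) against that in sensitive HCT-116 (horizontal axis) for G1/S and G2/M genes; each point is a gene, and the dotted line marks equal responses. The vertical values stay between -0.06 and 0.09 while the horizontal ones run from -2.63 to 0.17.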

How the data were processed

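Samples were grouped by their labels. Per the labels and the study's methods, poly(A) RNA was sequenced from both ends in a strand-specific way, reads were checked with FastQC 0.11.8, trimmed with Trimmomatic 0.36 and quantified with kallisto 0.44.0 against Ensembl transcripts of GRCh38. The authors deposited estimated counts summed per gene, which were rounded to whole numbers here (60.71% already were), and TPM, which were used for levels only. Kallisto divides reads shared by near-identical transcripts by estimate. The resistant HT-29 label is given to libraries that carried HCT-116 markers, so the comparison does not pair a resistant line with its labelled parent.

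Counts were tested with edgeR 4.0.16 in R 4.3.3: 1 quasi-likelihood fit over 54 libraries in 18 groups (36 residual degrees of freedom), TMM scaling and the default filter on low counts, which kept 26043 of 59368 genes. Adjusted p-values (Benjamini-Hochberg) were taken over all tested genes. On simulated counts of 24570 genes, 99 of 100 genes changed by 1.5 on the log2 scale and 99 of 100 changed by 2 were recovered, with 0 false calls. The changed genes were drawn without the genes of lowest counts, and all other genes had the same mean in every group. Recovery of genes with low counts was not tested. Total counts per library are given in the report, and intervals of counts cover counting error only. Same-numbered libraries of the main groups had correlations of their deviations of -0.001, -0.119 and -0.052 over 15585 genes, so their numbers do not pair them.

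Genes named were the 10 largest decreases and increases among called genes with at least 5 TPM in the higher group and no overlap, up to 4 called members of each list, the RT-qPCR panel and reference genes, the leading line markers and the leading KRAB zinc finger genes. Genes of chromosome 8, CDKN1A, UMPS, DPYD, TK1, CDX2, CIITA, HLA-DMA and the mitochondrial RNAs were named in addition. The members and lists were chosen with earlier results of these data known. KRAB zinc finger genes were found by translating GENCODE transcripts and searching for the KRAB domain with pyhmmer 0.12.3 (E-value of at most 1e-05), in place of a protein table. Promoters are from RefSeq. Alternatives were DESeq2 1.42.0, scaling by library size alone, no filter, fits on fewer groups, a replicate block, a log2 fold change of at least 2 and leaving out each library. With list genes at 0 counts set to their bounds, no list median moved. Some genes and lists are not reported here.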

Additional observations from a re-analysis of the deposited data

Results flagged for a closer look

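The 5-FU response differed between labelled resistant HT-29 and sensitive HCT-116 by the test of the difference itself. At an adjusted p of at most 0.01, 2566 genes responded lower and 4170 higher in labelled resistant HT-29 (edgeR, interaction term).

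CDKN1A differed by -1.62 and TYMS by 1.34 on the log2 scale. For both genes all 3 labelled resistant HT-29 libraries under 5-FU lay apart from all 3 of sensitive HCT-116 under 5-FU. Both genes were picked by name with their results known, so this separation is a description and no further evidence.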

How the results depend on the processing

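The counts of lower and higher genes, and of genes with a different 5-FU response, stayed within 1.5 times of those reported under DESeq2, scaling by library size alone, no filter and fits on fewer groups, except for the count of the 5-FU response of labelled resistant HT-29 itself. That count, 0 lower and 0 higher, became 1 and 1 with DESeq2, 23 and 24 without a filter, 1 lower with the compared groups alone and 1 lower without uracil replicate 1 of labelled resistant HT-29. With a log2 fold change of at least 2, the genes lower and higher than in sensitive HCT-116 numbered 551 and 170, and those lower and higher than in resistant HCT-116 numbered 156 and 131, as the stricter threshold implies. Leaving out 1 library at a time gave 1112 to 1190 lower and 473 to 593 higher genes against sensitive HCT-116, 370 to 428 and 356 to 484 against resistant HCT-116, 0 to 1 and 0 to 0 for 5-FU, and 2188 to 2473 and 3824 to 4186 for the difference in response. The replicate block gave 1058 lower and 473 higher genes against sensitive HCT-116, 324 and 371 against resistant HCT-116, 0 and 0 for 5-FU, and 3081 and 4160 for the difference in response, and the shared numbers pair nothing. The 12 lower genes of the RT-qPCR panel were 12 under every alternative run, and the 52 lower KRAB zinc finger genes were 43 with the stricter fold threshold and 49 to 55 otherwise. ALDOC, ETV4, LOXL2 and HMMR fell short of the fold threshold with scaling by library size alone. TNFRSF6B and HLA-DRA did not pass with DESeq2, and the cause was not tested. Depth limits the genes under 1 TPM, where a few counts set the level.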
